A study of Homo sapiens with 6 samples.

Results

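The DNA replication genes described here are 49 genes of the machinery that copies chromosomal DNA, taken by gene symbol from the deposited table, and all 49 were found among its 16659 genes. The cells were HepaRG, an established line from a human liver tumour whose cells can mature into hepatocyte-like cells, and the labels class it as hepatic stem. RNA was sequenced from 3 libraries labelled as a functional knockout of PXR and from 3 wild-type libraries, which the study names as its control. PXR, the pregnane X receptor, is a nuclear receptor that senses drugs and other foreign compounds and is encoded by NR1I2. All cells of both groups were HepaRG and were not treated with any drug. The labels do not say how the knockout was made, whether the knockout cells are a single clone, or whether libraries of a group came from separate cultures. The p-values below therefore measure the spread between these libraries, which may be technical.

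A cell copies its DNA in S phase. In G1, the origin recognition complex (ORC) with CDC6 and CDT1 loads the ring-shaped MCM2 to MCM7 helicase onto origins, and in S phase CDC45 and the GINS complex switch that helicase on. DNA polymerases, the sliding clamp PCNA with its loader RFC, single-strand binding protein RPA and enzymes that join Okazaki fragments then build the new strands, while other enzymes supply deoxynucleotides and copy chromatin marks. Many of these genes are transcribed in waves under the control of E2F factors as cells commit to division, and cells that leave the cycle, as most hepatocytes of adult liver have, keep them low.

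Levels are in scaled CPM, estimated reads as a share of a library size to which the authors had applied a scaling factor. Estimated depth was 28154914 to 33393110 reads in knockout libraries and 11359209 to 20945994 reads in wild-type libraries, so every knockout library was deeper than every wild-type library. The lowest level of any member in a library rested on an estimated 72.0 reads, so no member was near the limit of detection. Log2 values correlated at 0.997 or more within the knockout, at 0.995 or more within wild type and at no more than 0.871 between the groups. NR1I2 had 13.1, 13.4 and 14.3 scaled CPM in knockout libraries, against 8.24, 7.04 and 7.60 in wild-type libraries. It was therefore not lower in the libraries labelled knockout, and a value summed over the gene does not check a functional knockout. The 8 hepatocyte markers tested were all higher in the knockout and summed to 42958.5 to 44161.4 scaled CPM in its libraries, against 2225.8 to 2298.5 in wild-type libraries, with albumin (ALB) at 32829 and 867 on average. Of markers of other liver cell types, 4 cholangiocyte, 6 stellate, 2 endothelial and 3 leukocyte genes were tested. Of these 2, 3, 1 and 2 were higher and 2, 3, 1 and 1 lower, where 40.3% of all genes tested were higher and 39.6% lower. The largest fall among these markers was that of SPP1, at 43.6 in the knockout and 382 in wild type. The largest rise was that of ACTA2, at 55.7 in the knockout and 8.90 in wild type. Among them the endothelial PECAM1 was at 0.353 and 1.58 and the monocyte marker CD14 at 1.55 and 2.03 scaled CPM in the knockout and in wild type, while KDR was at 218 and 53.3 and DCN at 334 and 63.1. The part of these markers in the results below was not tested.

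Most replication genes were lower in the knockout. Of the 49 members, all of which passed the filter on low values, 43 were lower, 3 were higher and 3 did not pass the test (limma on log2(scaled CPM + 0.5), Benjamini-Hochberg adjusted p under 0.05 over all 16219 genes tested). Across all genes tested, 39.6% were lower and 40.3% higher, 79.9% in all, so a call by itself was common in this comparison, but 87.8% of the members were lower. The median log2 change of the members was -1.12, against 0.01 for all genes tested. A fall of at least 2-fold was called at 29 members, where 10.1% of all genes tested had one. Every knockout library lay below every wild-type library at 43 of the 49 members, the same 43 that were called lower. Across all genes tested, 40.0% had that arrangement and 39.6% were called lower, so it mostly restates the call. Summed over the members, the signal was 1382.4, 1382.7 and 1399.3 scaled CPM in knockout libraries, against 2646.3, 2645.3 and 2671.4 in wild-type libraries. In RNA from whole cultures, fewer dividing cells and less RNA of these genes per cell cannot be told apart.

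**Figure D1:**
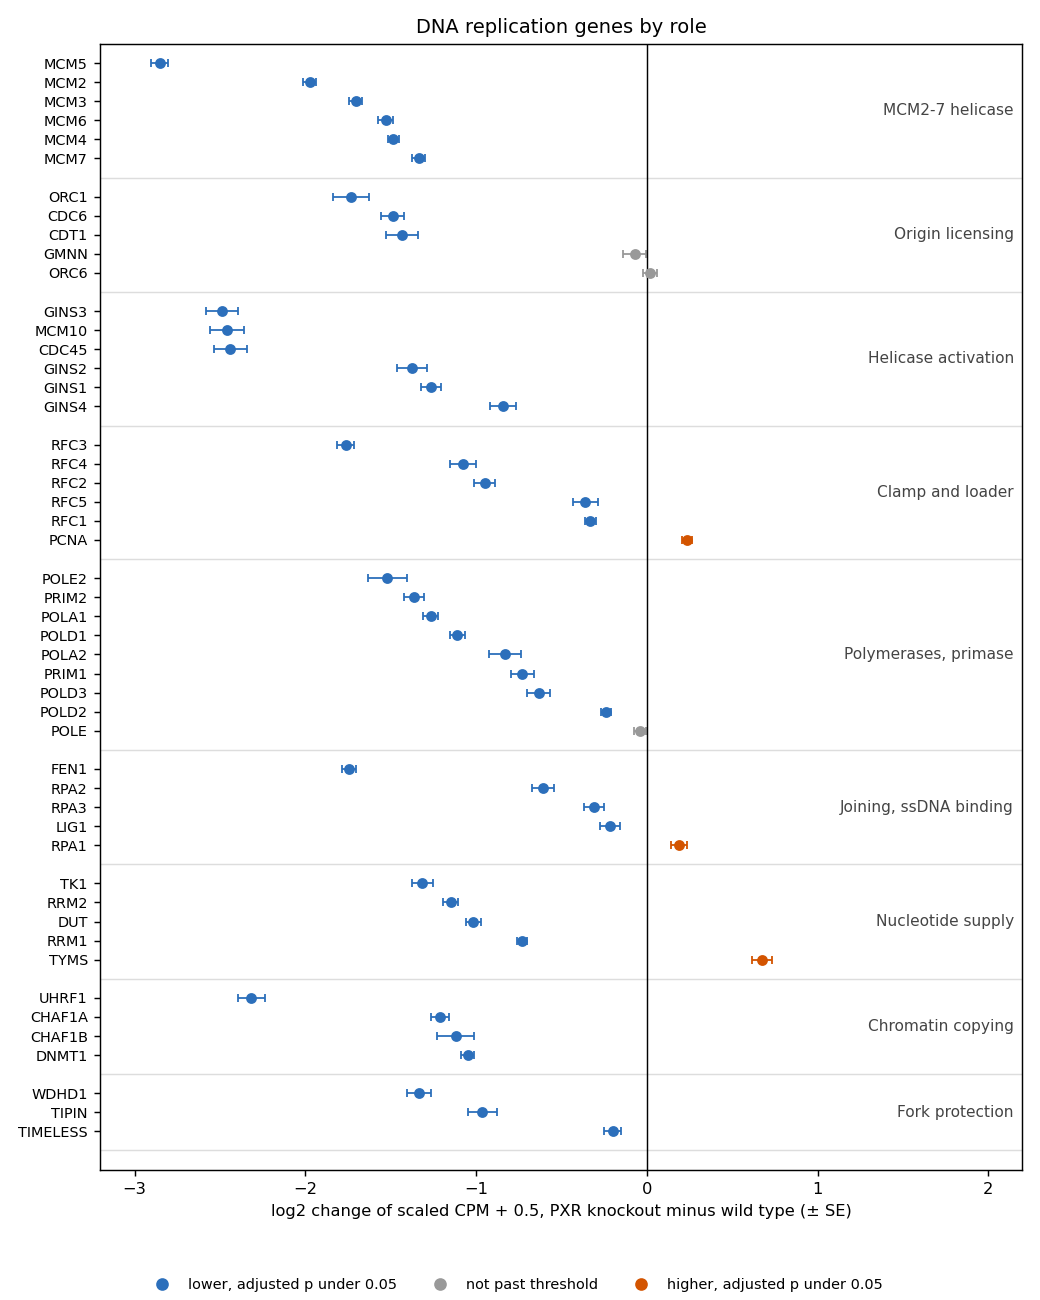
Log2 change of each of the 49 replication genes (knockout minus wild type, on the log2(scaled CPM + 0.5) scale), grouped by role and ordered by size within a role; points are limma estimates from 3 libraries a group and bars are their SE. MCM5, GINS3, MCM10 and CDC45 lie farthest to the left, at -2.85 to -2.44, while TYMS, PCNA and RPA1 lie right of 0 and ORC6, POLE and GMNN lie close to it.

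All 6 subunits of the replicative helicase were lower by more than 2-fold. MCM5 (ENSG00000100297.16, chromosome 22, 35400063 to 35425430 in GRCh38) changed most of all members. It had 13.2, 14.4 and 14.9 scaled CPM in knockout libraries, against 101, 108 and 107 in wild-type libraries. The groups did not overlap and the knockout level was 13.4% of that of wild type, a log2 change of -2.85 ± 0.050 (SE, n = 3 each; limma adjusted p = 2.6e-15). MCM2 had 27.9, 26.5 and 26.8 scaled CPM in the knockout and 106, 105 and 112 in wild type. MCM3 had 53.9, 50.5 and 55.3 in the knockout and 178, 173 and 173 in wild type. The log2 changes of MCM2 and MCM3 were -1.97 ± 0.039 and -1.71 ± 0.036.

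The other subunits of the ring fell less. MCM6 had 21.5, 22.3 and 22.4 scaled CPM in knockout libraries, against 66.1, 62.6 and 65.1 in wild-type libraries. MCM4 had 58.0, 58.0 and 58.7 in knockout libraries, against 160, 162 and 170 in wild-type libraries. MCM7 had 67.8, 73.9 and 68.7 in knockout libraries, against 176, 175 and 182 in wild-type libraries. Their log2 changes were -1.53, -1.48 and -1.34 (SE 0.032 to 0.043), and replicates of a group lay close together beside the distance between the groups. The subunits are thought to enter the ring in equal number, but their transcripts did not change by an equal factor. The ratio of MCM5 to MCM7 within a library was 0.202 ± 0.012 in the knockout and 0.593 ± 0.023 in wild type (SD, n = 3 each). That ratio is free of the scaling between libraries, and its exact permutation p (two-sided) was 0.10, the smallest that 3 libraries against 3 allow. The genes within 10 Mb of MCM5 had a median log2 change of -0.87, and those within 10 Mb of MCM7 one of 0.49. With such medians taken off, MCM5 was at -1.98 and MCM7 at -1.82. In the same way MCM2, MCM3, MCM6 and MCM4 were at -2.02, -1.72, -1.57 and -1.5, so the order of the subunits differed. The part of chromosome position in the ratio was not tested.

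**Figure D2:**
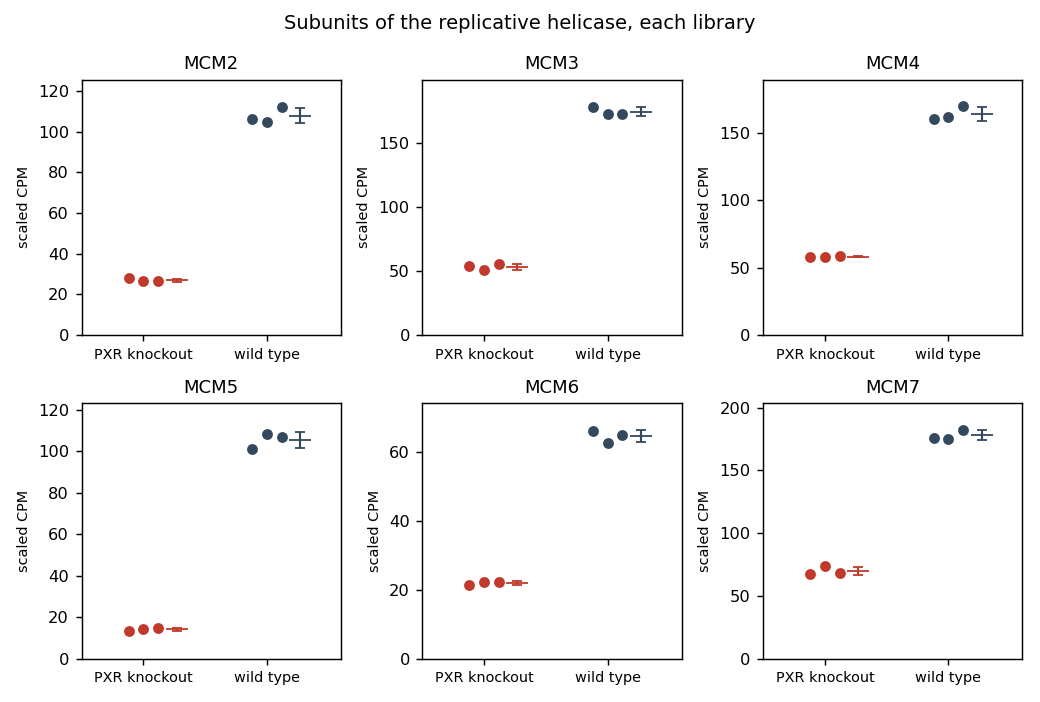
Scaled CPM of the 6 subunits of the MCM2 to MCM7 helicase in each library; points are libraries and the bar beside them is the mean ± SD of 3 libraries, with vertical axes that start at 0. The knockout libraries lie below the wild-type libraries for every subunit, with the widest gap for MCM5, at 14.2 against 105 scaled CPM on average.

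Genes that load the helicase split into a group that fell and a pair that did not pass the test. ORC1, the largest ORC subunit, had 4.37, 6.0 and 4.57 scaled CPM in knockout libraries, against 16.9, 17.6 and 18.2 in wild-type libraries. Its log2 change was -1.73 ± 0.11 (limma adjusted p = 1.7e-09). CDC6, the ATPase that completes loading with ORC, averaged 15.2 ± 1.5 in the knockout and 43.3 ± 1.7 in wild type, and CDT1, which brings the helicase to the origin, averaged 5.04 ± 0.20 in the knockout and 14.5 ± 1.5 in wild type (SD, n = 3 each). These 3 genes were at 28.4% to 35% of their wild-type level.

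ORC6, the smallest ORC subunit, had 57.2, 58.6 and 58.3 scaled CPM in knockout libraries, against 55.4, 60.3 and 56.3 in wild-type libraries. GMNN, which encodes geminin, the inhibitor of CDT1, had 15.1, 15.3 and 14.9 in knockout libraries, against 15.2, 15.6 and 16.9 in wild-type libraries. The groups overlapped for both genes, and neither passed the test (limma adjusted p = 0.67 and 0.33). With libraries set to equal sums instead, which moved the median log2 change of all genes to -0.12, both passed as lower, at -0.12 and -0.21. The ratio of CDT1 to GMNN was 0.334 ± 0.016 in the knockout and 0.912 ± 0.056 in wild type, and that of ORC1 to ORC6 was 0.0858 ± 0.014 in the knockout and 0.307 ± 0.016 in wild type (exact permutation p = 0.10 for each, the smallest possible). Partners at the origin thus changed by unequal factors.

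Factors that switch the loaded helicase on held 3 of the 4 largest falls among the members. GINS3 had 6.13, 5.11 and 7.09 scaled CPM in knockout libraries, against 35.9, 36.4 and 36.6 in wild-type libraries. MCM10, a helper of helicase firing that is not part of the ring, had 5.85, 4.30 and 5.57 in the knockout and 29.3, 30.0 and 33.3 in wild type. CDC45, the partner that forms the active helicase with GINS, had 2.93, 2.74 and 3.42 in the knockout and 18.3, 18.2 and 19.3 in wild type. Each was at 16.3% to 17.0% of its wild-type level, with log2 changes of -2.49 ± 0.093, -2.46 ± 0.10 and -2.44 ± 0.096 and limma adjusted p-values of at most 1.9e-11. The other GINS subunits fell less. GINS2 averaged 5.81 in the knockout and 15.9 in wild type, GINS1 10.9 in the knockout and 26.9 in wild type, and GINS4 10.04 in the knockout and 18.4 in wild type, so the 4 subunits of this complex changed by log2 values between -2.49 and -0.84. The ratio of GINS3 to GINS4 was 0.608 ± 0.080 in the knockout and 1.98 ± 0.088 in wild type (exact permutation p = 0.10).

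The sliding clamp rose while its loader fell. PCNA (ENSG00000132646.11, chromosome 20, 5114953 to 5126626) encodes the ring that holds polymerases on DNA. It had 122, 118 and 117 scaled CPM in knockout libraries, against 102, 103 and 98.9 in wild-type libraries. The groups did not overlap, and the log2 change was 0.23 ± 0.031 (limma adjusted p = 6.7e-06). With libraries set to equal sums the rise was 0.097 and still passed the test. RFC3, a small subunit of the loader, had 12.9, 12.4 and 12.8 in knockout libraries, against 43.6, 44.9 and 44.5 in wild-type libraries, a log2 change of -1.76 ± 0.050. RFC4, RFC2, RFC5 and RFC1 had log2 changes of -1.08, -0.95, -0.36 and -0.33. RFC1, the large subunit, averaged 76.3 ± 0.98 in the knockout and 96.1 ± 1.5 in wild type (SD, n = 3 each), a fall of much smaller factor than that of RFC3. The ratio of RFC3 to PCNA was 0.107 ± 0.0020 in the knockout and 0.438 ± 0.011 in wild type.

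Of 9 genes of the replicative polymerases and primase, 8 fell and POLE did not pass the test. POLE2, the second subunit of the leading-strand polymerase epsilon, had 2.34, 2.67 and 3.14 scaled CPM in knockout libraries, against 9.32, 8.33 and 8.41 in wild-type libraries (log2 change -1.52 ± 0.12). POLE, the catalytic subunit of the same enzyme, had 67.6, 69.7 and 72.1 in knockout libraries, against 72.5, 70.1 and 72.8 in wild-type libraries (log2 change -0.041 ± 0.036, limma adjusted p = 0.30, and -0.18 with a call as lower under equal sums). The catalytic subunit therefore overlapped between groups where its partner did not, and the ratio of POLE2 to POLE was 0.0388 ± 0.0045 in the knockout and 0.121 ± 0.0068 in wild type (exact permutation p = 0.10).

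Polymerase alpha and primase lay the RNA-DNA primers of each fragment. PRIM2, the large primase subunit, and POLA1, the catalytic polymerase subunit, fell most, with log2 changes of -1.36 and -1.27. POLA2, an accessory subunit, and PRIM1, the catalytic primase subunit, had -0.83 and -0.73. POLA2 in wild type had 19.6 scaled CPM in the first library but 15.6 and 14.9 in the others. It shares 35.1% of its exon length with another annotated gene, AP000944.2, which had 1.66, 5.09 and 5.08 in the same libraries, so the division of reads between these genes is uncertain. Polymerase delta, which copies the lagging strand, showed unequal changes as well. POLD1, its catalytic subunit, averaged 26.2 ± 1.1 in the knockout and 57.1 ± 0.57 in wild type, whereas POLD2, its accessory subunit, averaged 123 ± 3.7 in the knockout and 145 ± 0.69 in wild type. POLD3 lay between them, with a log2 change of -0.63. POLD1, POLD2 and POLD3 were at -1.05, -0.65 and -0.63 once the median of the genes within 10 Mb on either side was taken off.

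Among genes for flap removal, ligation and single-strand binding, FEN1 stood at the largest fall. FEN1, the nuclease that trims the 5′ flap of Okazaki fragments, had 22.9, 21.6 and 21.3 scaled CPM in knockout libraries, against 75.6, 74.1 and 74.6 in wild-type libraries (log2 change -1.75 ± 0.042). LIG1, the ligase that seals the nick after it, had 31.4, 35.4 and 35.2 in knockout libraries, against 36.8, 40.3 and 41.7 in wild-type libraries. The groups of LIG1 came close together but did not overlap, and its log2 change was -0.22 ± 0.058 (limma adjusted p = 0.0036). The subunits of RPA, the protein that coats single-stranded DNA, moved in different directions. RPA1, the large subunit, had 39.2, 40.9 and 40.3 in knockout libraries, against 37.3, 33.8 and 34.4 in wild-type libraries, a rise of 0.19 ± 0.047 (limma adjusted p = 0.0021). RPA2 and RPA3 had log2 changes of -0.61 and -0.31. With the median of the genes within 10 Mb on either side taken off, RPA1, RPA2 and RPA3 were at -0.54, -0.57 and -0.75. The rise of RPA1 depended on the scaling: with libraries set to equal sums its change was 0.053 (adjusted p = 0.32).

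In the supply of deoxynucleotides, 4 of 5 members fell and TYMS rose. TYMS (ENSG00000176890.16, chromosome 18, 657604 to 673578) encodes thymidylate synthase, which makes dTMP from dUMP. It had 31.8, 31.7 and 33.0 scaled CPM in knockout libraries, against 21.2, 20.6 and 18.3 in wild-type libraries. Every knockout library was above every wild-type library, and the log2 change of 0.68 ± 0.060 was the largest rise among the members (limma adjusted p = 1.1e-07). TK1, the thymidine kinase of the salvage route to dTMP, had 12.7, 13.8 and 13.5 in knockout libraries, against 32.4, 33.2 and 36.0 in wild-type libraries. These enzymes of the same product thus moved in opposite directions, and the ratio of TYMS to TK1 was 2.42 ± 0.11 in the knockout and 0.594 ± 0.077 in wild type. TYMS shares 39.1% of its exon length with ENOSF1 on the opposite strand, and ENOSF1 was lower, at 29.2 ± 0.15 in the knockout and 82.2 ± 3.2 in wild type. The use of strand in the authors' counting is not known, so reads of this pair may not be fully separated.

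Ribonucleotide reductase makes all deoxynucleotides. RRM2, its S phase subunit, had 33.2, 32.4 and 33.4 scaled CPM in knockout libraries, against 78.7, 70.5 and 72.4 in wild-type libraries. Its partner RRM1 averaged 69.1 ± 0.24 in the knockout and 115 ± 1.3 in wild type. RRM2B, the damage-inducible form of the small subunit and not one of the 49 genes, had 491, 468 and 487 in knockout libraries, against 61.7, 62.5 and 63.2 in wild-type libraries (log2 change 2.94 ± 0.028, limma adjusted p = 6.2e-18). The ratio of RRM2 to RRM2B was 0.0685 ± 0.00087 in the knockout and 1.18 ± 0.081 in wild type. DUT, the dUTPase that keeps uracil out of DNA, averaged 41.2 ± 2.1 in the knockout and 83.7 ± 3.0 in wild type.

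All 4 genes that copy chromatin with the DNA fell by more than 2-fold. UHRF1, which reads half-methylated DNA behind the fork, had 7.39, 8.70 and 9.19 scaled CPM in knockout libraries, against 42.8, 41.6 and 47.3 in wild-type libraries. Its log2 change was -2.32 ± 0.079, the largest fall outside the helicase and its activators. DNMT1, the maintenance methyltransferase that UHRF1 recruits, fell less, to 55.4 ± 1.1 in the knockout, against 115 ± 5.1 in wild type. The chromatin assembly factor subunits CHAF1A and CHAF1B, which deposit histones on new DNA, had log2 changes of -1.21 and -1.12. In the group that protects stalled forks, WDHD1, which links polymerase alpha to the helicase, averaged 13.4 ± 1.5 in the knockout and 34.5 ± 0.48 in wild type. TIPIN averaged 5.77 ± 0.088 in the knockout and 11.7 ± 0.77 in wild type. It shares 21.0% of its exon length with the processed pseudogene RPL9P25 on the same strand, so the division of reads between them is uncertain. TIMELESS, the binding partner of TIPIN, had 32.6, 33.9 and 37.1 in knockout libraries, against 39.2, 40.7 and 39.1 in wild-type libraries. Its log2 change was -0.20 ± 0.051.

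**Figure D3:**
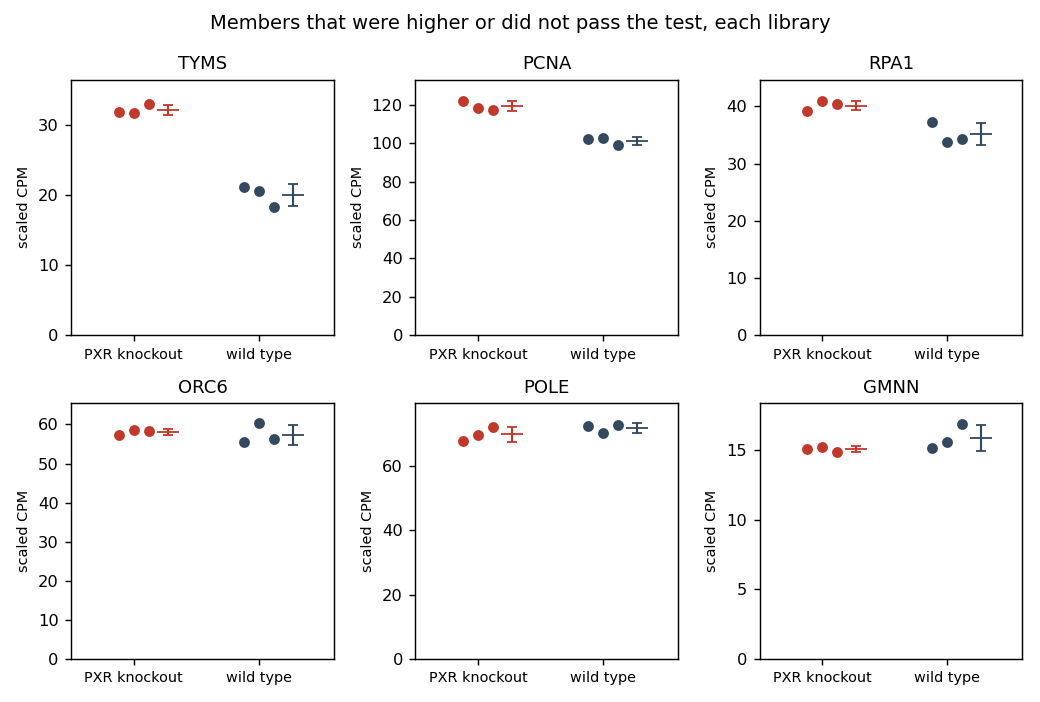
Scaled CPM in each library of the 6 members that were higher in the knockout (TYMS, PCNA, RPA1) or did not pass the test (ORC6, POLE, GMNN); points are libraries, bars are the mean ± SD of 3 libraries, and vertical axes start at 0. The groups are apart in the upper row, by most for TYMS at 32.2 against 20.01 scaled CPM, and overlap in the lower row.

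Promoter sequences were compared because many of these genes moved together. RefSeq promoters on GRCh38.p14, from 250 bases before to 50 bases after a gene's start, were on hand for 43 of the 49 members, and were searched on both strands for 4 strings of the E2F type: TTTCCCGC, TTTGGCGC, TTTCGCGC and TTTGCGCG. The strings can overlap, and a gene with several starts counted as holding a string if any of its windows did. At least 1 of the 4 strings was found in 24 of the 43 members (55.8%), against 3.80% of all 27305 genes with a promoter. Those 27305 genes were not limited to the genes tested here, for which the shares were not computed. TTTCCCGC alone was held by 11 members (25.6%), against 1.98% of all genes. The shorter CCAAT box was found in 60.5% of the members and in 39.72% of all genes, and either of the strings TTTGAA and TTCGAA of the CHR element in 7.0% of the members and in 19.54% of all genes. A match is a description of letters and not of binding.

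The E2F strings were held by members of every kind of call, including 19 of the 37 lower members with a promoter. Members with a string had a median log2 change of -1.26 (n = 24) and those without one -1.12 (n = 19). Both TYMS and PCNA, which rose, and all of ORC6, POLE and GMNN, which did not pass the test, held one, and RPA1, which also rose, did not. The stretches from 100 bases before to 10 bases after the start are shown for 7 members, chosen so that the same kind of string can be seen beside a rise (TYMS, PCNA), no call (ORC6, POLE) and a fall (UHRF1, GINS3, RFC3), with the matched string in capitals. They lie on GRCh38.p14, TYMS at chr18:657553-657662 (plus strand), PCNA at chr20:5126613-5126722 (minus strand), ORC6 at chr16:46689559-46689668 (plus strand), POLE at chr12:132687333-132687442 (minus strand), UHRF1 at chr19:4909401-4909510 (plus strand), GINS3 at chr16:58392371-58392480 (plus strand) and RFC3 at chr13:33818049-33818158 (plus strand). In all but ORC6 the match is on the opposite strand, so that TTTCCCGC reads as GCGGGAAA and TTTGGCGC as GCGCCAAA.
TYMS: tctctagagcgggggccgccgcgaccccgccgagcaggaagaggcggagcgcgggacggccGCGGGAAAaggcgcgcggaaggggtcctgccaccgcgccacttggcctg
PCNA: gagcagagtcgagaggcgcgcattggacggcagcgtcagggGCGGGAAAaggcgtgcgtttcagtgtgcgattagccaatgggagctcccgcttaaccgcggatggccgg
ORC6: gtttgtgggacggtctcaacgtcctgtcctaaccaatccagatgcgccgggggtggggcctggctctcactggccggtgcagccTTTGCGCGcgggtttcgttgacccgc
POLE: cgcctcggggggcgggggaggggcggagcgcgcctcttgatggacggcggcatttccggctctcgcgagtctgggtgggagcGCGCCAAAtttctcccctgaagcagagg
UHRF1: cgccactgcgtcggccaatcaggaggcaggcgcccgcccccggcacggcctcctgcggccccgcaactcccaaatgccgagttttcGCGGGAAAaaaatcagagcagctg
GINS3: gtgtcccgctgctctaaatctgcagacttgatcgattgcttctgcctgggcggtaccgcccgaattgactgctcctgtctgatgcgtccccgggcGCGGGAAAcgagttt
RFC3: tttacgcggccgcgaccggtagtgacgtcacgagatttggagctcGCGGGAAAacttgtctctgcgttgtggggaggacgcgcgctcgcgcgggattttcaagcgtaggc

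The first printed letter of GCGGGAAA lies 39 bases before the start in TYMS and 59 bases before it in PCNA. In RFC3, UHRF1 and GINS3 it lies 55, 14 and 5 bases before the start, and in GINS3 the string runs across the start. The same letters thus stood near the start of genes whose log2 changes ran from -2.49 to 0.68.

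Levels can be compared between members only per length, here as scaled CPM per kilobase of annotated exon. On that scale PCNA was the highest member in both groups, at 81.0 per kilobase in the knockout and 68.8 in wild type. MCM3 and MCM7 came next in wild type, at 47.9 and 40.5, but stood at 14.6 and 16.0 in the knockout, under POLD2 at 33.3. MCM5 was the lowest of the 6 helicase subunits in both groups, at 1.93 in the knockout and 14.4 in wild type. MCM6, the nearest subunit above it in wild type at 15.7, was at 5.36 in the knockout. MCM10 and POLE2 were at 0.961 and 0.919 in the knockout and at 5.67 and 2.94 in wild type. CHAF1B was the lowest member in both groups, at 0.646 in the knockout and 1.52 in wild type. The length is that of all annotated exons, so a gene that uses few of them has its level understated.

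**Figure D4:**
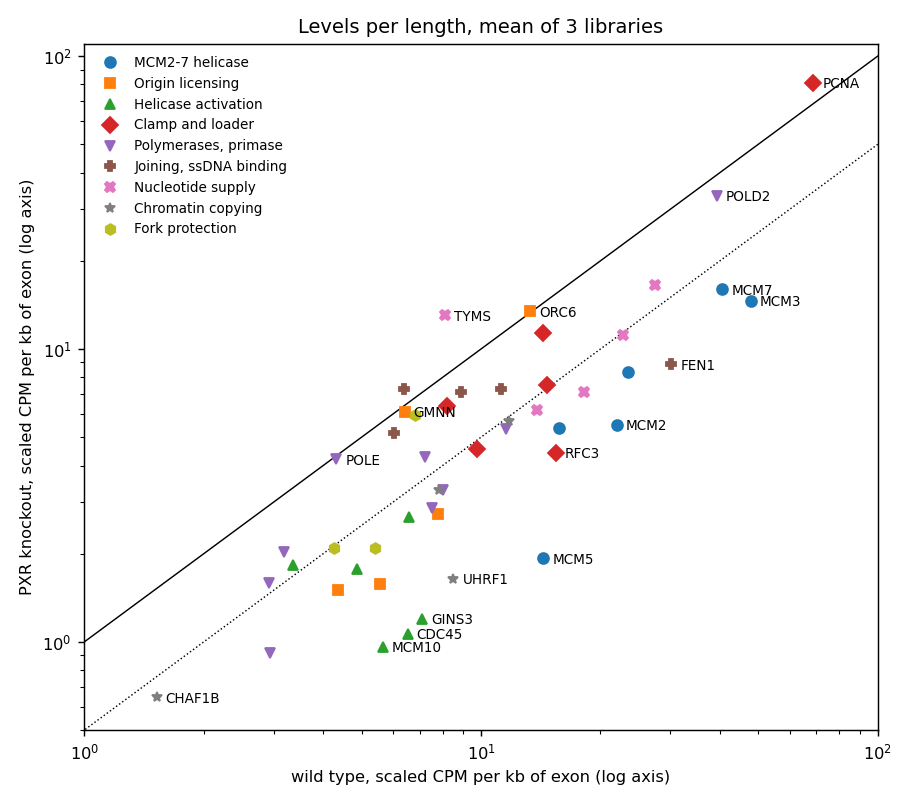
Mean level per length of the 49 members in the knockout (vertical) against wild type (horizontal), in scaled CPM per kilobase of exon on log axes; symbols mark the role, the solid line is equality and the dotted line a knockout level of 50 percent of wild type. Helicase and helicase-activation genes lie under the dotted line except GINS4, and PCNA, TYMS, RPA1 and, narrowly, ORC6 lie above the solid line.

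Where a gene lies on the chromosomes went with some of these values. The 2 members on chromosome 22, MCM5 and CDC45, were among the 4 largest falls, and the median log2 change of the 377 genes tested on that chromosome was -0.77. With the median of the genes within 10 Mb on either side taken off, the log2 change of MCM5 was -1.98 and that of CDC45 was -1.70. GINS3, UHRF1, MCM10 and MCM2 were then at -2.54, -2.49, -2.38 and -2.02, each a larger fall than that of MCM5. The opposite held on chromosome 7, with a median of 0.43 over 816 genes, where MCM7, RFC2, RPA3 and POLD2 lie, and on chromosome 12, with 0.33 over 844 genes, where PRIM1, RFC5, TIMELESS and POLE lie. With their neighbours' median taken off, MCM7, RFC2, RPA3 and POLD2 were at -1.82, -1.32, -0.75 and -0.65. In the same way, PRIM1, RFC5 and TIMELESS were at -1.23, -0.83 and -0.72, and TIPIN, the binding partner of TIMELESS, was at -0.86. POLE, near 0 in the comparison, was 0.37 below the median of its neighbours. RPA1, on the short arm of chromosome 17, rose by 0.19 where its neighbours within 10 Mb had a median of 0.73, so it was 0.54 below them. Over the 47 members off chromosome 22, 41 were lower and the median log2 change was -1.11, and over all 49 the median was -1.18 after taking off the neighbours' median.

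Of 32 other replication genes, 26 were lower, 4 were higher and 2 missed the threshold; the list's median log2 change was -0.75. DSCC1, part of an alternative clamp loader, and CLSPN, the checkpoint mediator claspin, fell most, to 5.69 ± 0.33 and 10.3 ± 0.49 scaled CPM in the knockout, against 26.7 ± 0.94 and 39.6 ± 1.7 in wild type. POLD4, the smallest subunit of polymerase delta, and CHTF8 rose most, to 94.5 ± 1.6 and 46.8 ± 2.1 in the knockout, against 49.4 ± 2.7 and 33.4 ± 1.4 in wild type. Of 16 other genes of nucleotide supply, 13 were lower and 3 higher. Their median log2 change was -0.47, close to the lower quartile of all genes tested (-0.45). The counts of both lists stand beside 39.6% of all genes tested that were lower and 40.3% that were higher. IMPDH2, the guanine nucleotide enzyme, fell to 64.2 ± 1.5 in the knockout, against 293 ± 4.8 in wild type. Besides RRM2B, SHMT1 and SHMT2, which charge folate with a carbon from serine, were higher, with log2 changes of 0.84 and 0.76; SHMT2 and, below, CDK2 were named after their values were seen.

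Of 17 regulators of entry into S phase, 13 were lower, 3 were higher and 1 did not pass the test, and their median log2 change was -0.74. E2F2 and CDC25A, a transcription factor and a phosphatase that drive the G1/S transition, fell most, to 3.14 ± 0.60 and 2.36 ± 0.33 scaled CPM in the knockout, against 21.7 ± 2.0 and 16.7 ± 1.1 in wild type. E2F1 averaged 7.33 ± 0.46 in the knockout and 22.4 ± 1.7 in wild type, and cyclin E2 (CCNE2) 6.79 ± 0.97 in the knockout and 18.2 ± 0.86 in wild type. Cyclin D2 (CCND2) was at 29.3 ± 1.9 in the knockout and at only 0.603 ± 0.25 in wild type, and cyclin D3 (CCND3) rose by 0.50 on the log2 scale. CDK2, the kinase that cyclin E activates and the gene that missed the threshold, averaged 42.3 in the knockout and 42.0 in wild type. Of 10 genes of the RB family and the DREAM complex, 8 were lower and 2 did not pass the test. Their median log2 change of -0.38 lay within the quartiles of all genes (-0.45 to 0.49). RBL1 and LIN9 fell most, by 1.31 and 1.19 on the log2 scale. The counts of both lists stand beside 39.6% of all genes tested that were lower.

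Of the 6 inhibitors of cyclin-dependent kinases measured, 4 were higher, 1 was lower and 1 did not pass the test, where 40.3% of all genes tested were higher. Their median log2 change of 0.35 lay within the quartiles of all genes (-0.45 to 0.49), and CDKN1A and CDKN2B rose most. CDKN1A, which encodes p21, averaged 664 ± 17 scaled CPM in the knockout and 35.1 ± 2.0 in wild type, and CDKN2B, which encodes p15, 77.3 ± 1.3 in the knockout and 25.6 ± 1.1 in wild type. CDKN2C fell, to 12.4 ± 0.57 in the knockout, against 24.1 ± 1.5 in wild type.

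All 22 genes of mitosis measured were lower, with a median log2 change of -1.28. MKI67, the proliferation marker, had 51.4, 47.4 and 53.3 scaled CPM in knockout libraries, against 123, 110 and 109 in wild-type libraries. CDC20 and BUB1B, an activator of the anaphase-promoting complex and a checkpoint kinase, fell most, by 2.59 and 2.08 on the log2 scale. Of 20 genes of the S phase checkpoint and of repair, 17 were lower, 2 were higher and 1 missed the threshold, and the median was -1.33. CHEK2, which lies on chromosome 22, and EXO1, a nuclease of mismatch repair, fell most, by 2.27 and 2.22 on the log2 scale, while HUS1 and RAD9A, parts of the checkpoint clamp, rose by 0.50 and 0.48. The lists were chosen with earlier results of these data known, and their counts and medians are descriptions set beside the 39.6% of all genes that were lower.

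**Figure D5:**
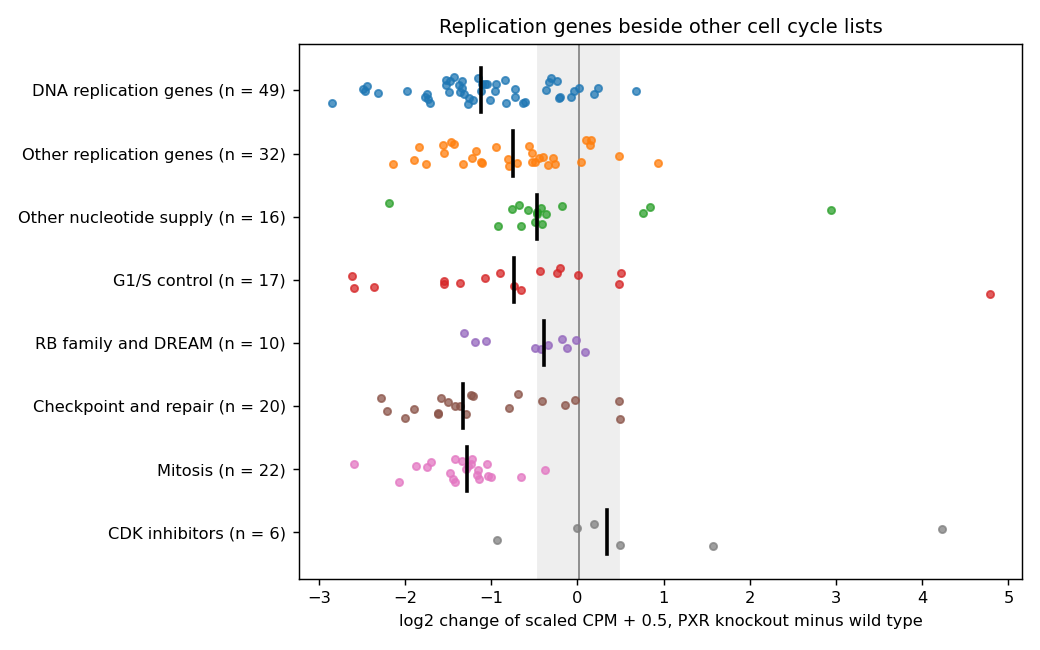
Log2 change (knockout minus wild type) of each tested gene in the replication set and in 7 other lists; points are genes, spread vertically for legibility, black bars are list medians, the grey line is the median of all genes tested (0.01) and the grey band spans their quartiles (-0.45 to 0.49). Medians lie left of the band for the replication (-1.12), other replication (-0.75), other nucleotide (-0.47), G1/S (-0.74), checkpoint (-1.33) and mitosis (-1.28) lists, and inside it for the RB family and DREAM (-0.38) and the CDK inhibitors (0.35).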

How the data were processed

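RNA of 6 untreated HepaRG libraries was analysed, grouped by the sample titles. A TruSeq Stranded mRNA kit was used on total RNA, per the labels' protocols. Bowtie2, Trim Galore, FastQC, limma, edgeR and the build hg38 appear in the submitters' processing notes. Their versions, the annotation and the strand setting of the counting are not given in the sources at hand. The deposited values are a linear normalized signal (scaled CPM), though named as log2; the step worth 1 read gave each library's estimated depth. As only 67.9% to 76.6% of low values came out as whole reads, within 0.006 of a read, no count test was run.

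Second copies of pseudoautosomal genes (14 rows) were dropped, 21 date-like symbols were repaired, and GENCODE 29 matched 16608 of 16659 identifiers without version suffix. Genes above 1 scaled CPM in at least 3 of 6 libraries were tested. The test was limma 3.58.1 (R 4.3.3) on log2(scaled CPM + 0.5), two-sided, with moderated variances that follow a trend in the mean. Adjustment was Benjamini-Hochberg over 16219 genes, with a threshold of 0.05. In simulated data with 200 genes set to change, 38 of 48 changes of 1.5-fold and 47 of 48 of 2-fold were recovered, with 6 false calls. Smaller changes were not simulated, and far fewer genes were set to change than were called in the real data. The log2 scale with its pseudocount understates changes of low genes. Estimated reads are shared between near-identical genes. In the annotation 9 members have numbered pseudogenes and 23 share exon bases with another gene, 17 of them with a gene of the table. Besides POLA2, TYMS and TIPIN, the largest overlaps were those of MCM2, GINS4 and RRM2, at 22.7%, 21.2% and 20.2% of exon length. Their partner genes lie on the opposite strand for MCM2 and GINS4 and on the same strand for RRM2. Those partners are not in the table, and reads may not be fully separated.

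The members and lists were chosen with earlier results of these data known. Values of every library are given for the 10 largest changes, for members against the main direction or not past the threshold, for MCM2 to MCM7 and for some others where a ratio or comparison uses them; from each other list up to 2 largest rises and falls are named, and also CDKN1A, RRM2B, E2F1, CCNE2, MKI67 and NR1I2. Ratios within a library were chosen after their values were seen, 9 in all, each with an exact permutation p of 0.10, which no adjustment can lower. Alternatives were other pseudocounts, no filter, other scalings, no trend, the replicate number as a block and each library left out. The other computing used Python 3.11.15 with numpy 2.4.6, pandas 2.3.3 and matplotlib 3.10.9. Some genes, and 1 whole list that was tested, are not reported here.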

Additional observations from a re-analysis of the deposited data

How the results depend on the processing

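Over 14 alternatives, 45 of the 49 members kept their direction and their side of the threshold; the exceptions were ORC6, GMNN, POLE and RPA1. The count of lower members ran from 43 to 46 and that of higher members from 2 to 3. With each library left out in turn the counts stayed at 43 and 3, and the median log2 change ran from -1.16 to -1.10. Libraries scaled to equal sums moved that median to -1.25, as they moved the median of all genes to -0.12; ORC6, GMNN and POLE then came out lower, at -0.12, -0.21 and -0.18 on the log2 scale (limma adjusted p = 0.0109, 0.0108 and 0.000338), and RPA1 no longer passed (0.053, adjusted p = 0.32). With that scaling the split of all genes was 5358 higher and 7681 lower, beside 6534 and 6426. Quantile normalization turned ORC6 to -0.015 and made POLE pass as lower (-0.0878, adjusted p = 0.029); the cause was not tested. ORC6 ran from -0.0048 to 0.056 with a library left out, the negative value being without wild-type replicate 1. Same-numbered libraries did not deviate together (r from -0.061 to 0.025), so the numbers were not taken to pair them; with the replicate block the counts were again 43 and 3, with a median of -1.12. All knockout libraries were deeper than all wild-type libraries, so depth and group cannot be told apart.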
